A study of Mus musculus with 6 samples.

Results

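Arc, Homer1, Ptgs2, Bdnf, Nptx2, Btg2, Plk2, Nrn1, Rgs2 and Gadd45b, 10 of the 54429 genes listed in the count files, were examined in prefrontal cortex (PFC) from WT mice and P301S Tau mice. The 10 genes are induced by neuronal activity and encode synaptic, secreted and signalling proteins, not transcription factors. They were chosen by symbol with their values in these libraries already known, so their levels and differences describe these libraries, and the calls, intervals and adjusted counts given for them below, taken from the fit over all genes, are not independent evidence. The study asked whether UNC0642, an inhibitor of the histone methyltransferases EHMT1 and EHMT2, alters gene expression in a mouse model of tauopathy. WT + vehicle mice carried the genotype (C57BL/6 x C3H). Tau + vehicle and Tau + UNC0642 mice carried PS19(P301S), a transgene for a mutant human tau isoform under the mouse prion protein promoter, so that its tau is made in many neurons beyond the PFC. UNC0642 was injected intraperitoneally at 1 mg/kg once daily for 3 days, and both vehicle groups received saline with a little DMSO. Each group held 2 mice aged 6 months, with 1 total RNA library per mouse from bulk PFC lysate, and no WT mice treated with UNC0642 were analysed here.

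When a cortical neuron fires, calcium entering through NMDA receptors and voltage-gated channels activates kinases that act on factors already bound to DNA, among them CREB and SRF. A first wave of genes follows within minutes, made up of transcription factors such as Fos and Egr1 and of effectors such as Arc and the short form of Homer1, and slower effectors follow. The effector proteins act back on the synapse: some remove or anchor glutamate receptors, some are secreted, and others damp G protein, Ras or cell growth signalling.

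All 10 genes were expressed in every library, from 246 to 19673 counts, and all passed the filter on low counts that left 20409 genes. Library totals ran from 17005664 to 28972176 counts. Levels are given in CPM, a gene's counts scaled to a common library size with the trimmed mean of M values. In this order, the 6 libraries are WT replicates 1 and 2, Tau replicates 1 and 2, and UNC0642 replicates 1 and 2.

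The libraries carried 3 features that touch the values below. Prnp, whose promoter drives the transgene, was at 873 CPM in WT replicate 2. In the library labelled WT replicate 1 it was at 1652 CPM, level with the 1470 to 1694 CPM of the transgenic libraries. Mapt, the tau gene, was at 449 CPM in WT replicate 2, 576 CPM in the library labelled WT replicate 1 and 570.5 to 614 CPM in the transgenic libraries. The members' differences from WT are therefore also given without the library labelled WT replicate 1. Xist was at 191 to 317 CPM in WT replicate 2 and both Tau libraries and at most 0.197 CPM in the others, in which the Y-linked gene Ddx3y was at 95.1 to 101 CPM. Treatment and sex-linked expression thus cannot be told apart between Tau + UNC0642 and Tau + vehicle. Between Tau + UNC0642 and WT, the same holds for every value below given without the library labelled WT replicate 1. WT replicate 2 is then the sole WT library, and its sex-linked pattern is the opposite of that of the UNC0642 libraries. With all 6 libraries, the WT pair was mixed in this pattern and each other group was not. Both comparisons against WT, Tau over WT among them, were thus unbalanced in sex-linked expression. Tau replicate 2 stood apart in 7 striatal neuron markers, summing to 226 CPM against 84.0 to 104 CPM elsewhere, and in 7 oligodendrocyte markers, summing to 5410 CPM against 1430 to 2900 CPM. The part of these features in the results was not tested beyond the fits given here. Markers of PFC excitatory neurons were present throughout, summing to 1380 to 1670 CPM over 6 genes, and none of the 6 was at 0 in any library.

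Compared with WT mice, 6 of the 10 genes were called higher in P301S Tau mice (Arc, Homer1, Ptgs2, Bdnf, Plk2 and Rgs2) and 1 was called lower (Btg2). A call was an unadjusted p under 0.05 with a fold of at least 1.2, the study's own threshold, in edgeR's quasi-likelihood test. Among all 20409 genes, 3.72% were called higher and 6.1% lower, and nothing is read from the members' share because the members were chosen on it. The median log2 fold change over the 10 genes was 0.33, against 0 over all genes tested. In these bulk samples more RNA per cell and more cells of a type cannot be told apart.

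In UNC0642-treated compared with vehicle-treated P301S Tau mice, 6 genes were called higher (Arc, Homer1, Ptgs2, Bdnf, Nptx2 and Btg2) and 0 lower, where 3.73% and 3.95% of all genes were called. The median log2 fold change of the 10 genes was 0.34. Leaving out Tau replicate 1, Tau replicate 2 or UNC0642 replicate 1 left 3 genes called each time, with Arc and Homer1 among the 3 in each of these fits. With a term for sex-linked expression, which rests on the difference between the 2 WT libraries, the values ran from -0.26 for Gadd45b to 1.04 for Bdnf. Homer1, Ptgs2, Bdnf and Nrn1 were the 4 genes called, where 825 of all 20409 genes were called higher and 817 lower. No pair of UNC0642 and Tau libraries shared its sex-linked pattern, so no value within a pattern can be given. Between UNC0642-treated P301S Tau and WT mice, 9 genes were called higher and Btg2 lower, where 3.77% and 5.69% of all genes were called, and the median was 0.50. Within the libraries high in Ddx3y, which leaves out WT replicate 2, Arc was at 1.24, Homer1 at 1.21, Ptgs2 at 1.14, Bdnf at 1.27 and Btg2 at -0.91. The other members were at smaller values, Nptx2 at 0.45, Rgs2 at 0.44, Nrn1 at 0.42, Plk2 at 0.35 and Gadd45b at 0.24. All these values rest on the library labelled WT replicate 1 as the sole WT library, with the spread taken from the other groups. The first comparison shares its Tau libraries with the second and its WT libraries with the third, so the 3 sets of differences are not independent.

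After Benjamini-Hochberg adjustment over all 20409 genes in the same edgeR fit, 2 members were under the 0.05 threshold between P301S Tau and WT mice (Arc and Ptgs2), 1 between treated and untreated P301S Tau mice (Homer1) and 3 between treated P301S Tau and WT mice (Arc, Homer1 and Ptgs2). Of all genes, 0.157%, 0.0196% and 0.216% were under it. For 6 of the 10 genes (Arc, Homer1, Ptgs2, Bdnf, Nptx2 and Nrn1), both Tau libraries lay above both WT libraries and both UNC0642 libraries above both Tau libraries. The same upward order without overlap held for 2.97% of all genes. Counted by comparison, both Tau libraries lay above both WT libraries for 8 members and below them for 1, where 21.9% and 21.4% of all genes did. Both UNC0642 libraries lay above both Tau libraries for 8 members and below for 1 (20.4% and 20.9% of all genes), and above both WT libraries for 9 and below for 1 (22.1% and 22.3%).

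**Figure D1:**
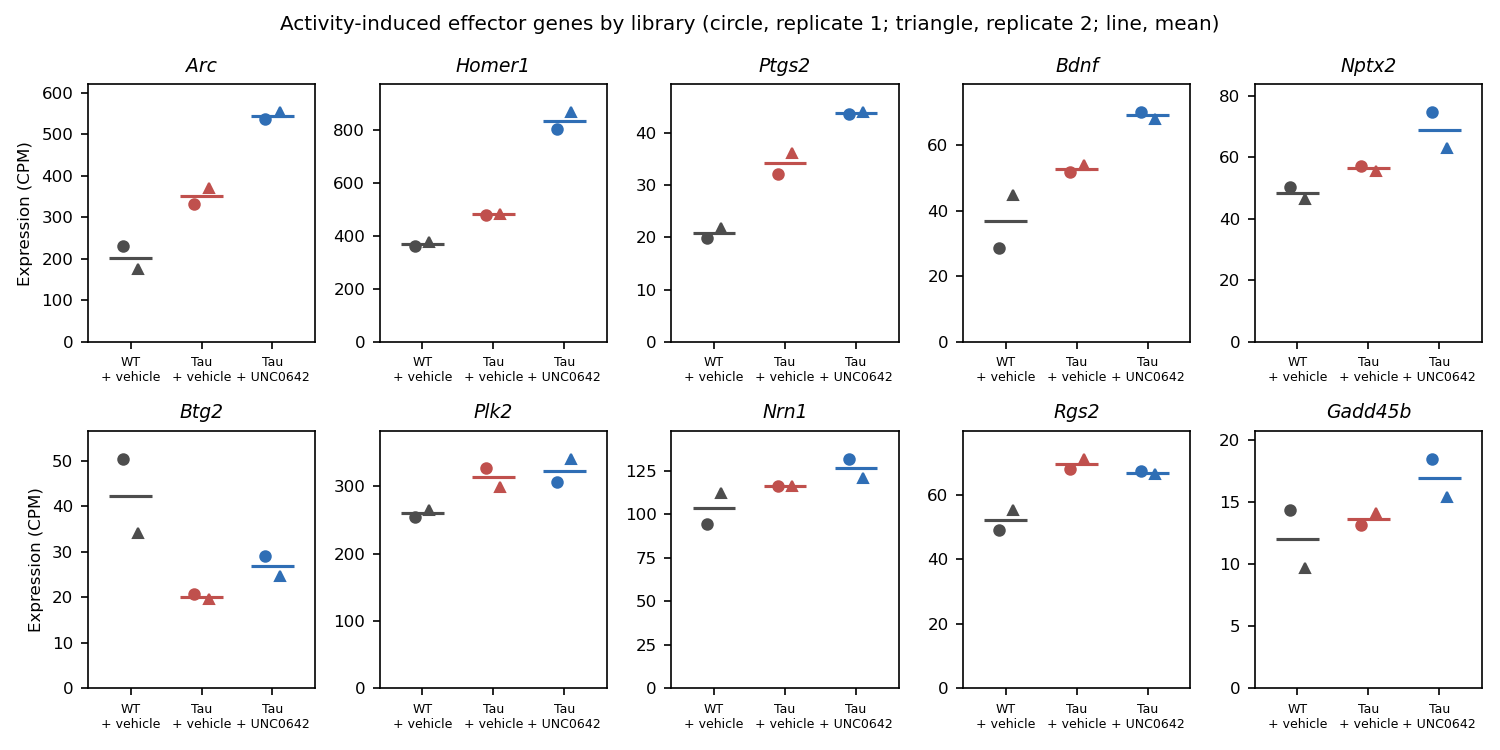
Level of each of the 10 genes in CPM (linear axis from 0) in each library, grouped as WT, Tau and UNC0642, with circles for replicate 1, triangles for replicate 2 and a line at the group mean. Arc lies at 175 to 231 CPM in WT and at 536 to 553 CPM in UNC0642-treated mice, while Btg2 is highest in WT.

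Promoter sequence was examined because CREB and related factors read short elements near the start of many activity-induced genes. RefSeq promoter windows (GRCm38.p6, 250 bases before and 50 bases from the start site on) matched 7 of the 10 genes by symbol, with 14 windows in all, 7 of them for Bdnf and 2 for Homer1. Arc, Nptx2 and Nrn1 had none there. Both strands were searched for the full cyclic AMP response element (CRE) TGACGTCA, its core TGACG, the AP-1 site TGANTCA, the EGR site GCGGGGGCG, the TATA box TATAAA and the CArG box bound by SRF. A full CRE holds a CRE core on each strand. The windows printed here hold a full CRE or have a CRE core within 56 bases of the start, and capitals mark full CREs or CRE cores, which read CGTCA where they lie on the other strand.
Homer1, start 1, chr13:93303507-93303806, plus strand: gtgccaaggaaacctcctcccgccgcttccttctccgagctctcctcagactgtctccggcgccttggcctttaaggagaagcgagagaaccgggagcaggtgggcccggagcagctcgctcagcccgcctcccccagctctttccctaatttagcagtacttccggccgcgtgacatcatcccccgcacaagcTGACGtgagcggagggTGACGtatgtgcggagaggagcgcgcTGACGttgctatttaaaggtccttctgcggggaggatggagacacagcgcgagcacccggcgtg
Plk2, chr13:110394794-110395093, plus strand: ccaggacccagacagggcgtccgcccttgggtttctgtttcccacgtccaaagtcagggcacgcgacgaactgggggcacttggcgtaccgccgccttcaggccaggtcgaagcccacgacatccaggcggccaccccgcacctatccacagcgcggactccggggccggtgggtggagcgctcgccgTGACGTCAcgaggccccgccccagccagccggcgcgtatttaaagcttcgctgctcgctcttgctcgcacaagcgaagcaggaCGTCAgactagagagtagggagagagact
Btg2, chr1:134079106-134079405, minus strand: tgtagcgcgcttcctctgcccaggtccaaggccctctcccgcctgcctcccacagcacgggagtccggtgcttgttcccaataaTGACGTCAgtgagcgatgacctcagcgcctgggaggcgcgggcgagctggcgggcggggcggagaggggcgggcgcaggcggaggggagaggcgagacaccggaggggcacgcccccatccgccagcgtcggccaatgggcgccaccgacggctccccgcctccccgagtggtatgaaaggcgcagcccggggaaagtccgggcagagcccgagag
Bdnf, start 3, chr2:109692186-109692485, plus strand: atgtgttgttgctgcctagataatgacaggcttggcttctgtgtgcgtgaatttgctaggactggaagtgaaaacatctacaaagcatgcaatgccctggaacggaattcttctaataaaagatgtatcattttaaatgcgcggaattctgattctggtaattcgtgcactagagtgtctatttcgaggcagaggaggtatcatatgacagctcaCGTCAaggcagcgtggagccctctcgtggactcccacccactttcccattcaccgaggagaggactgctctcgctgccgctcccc
Ptgs2, chr1:150099781-150100080, plus strand: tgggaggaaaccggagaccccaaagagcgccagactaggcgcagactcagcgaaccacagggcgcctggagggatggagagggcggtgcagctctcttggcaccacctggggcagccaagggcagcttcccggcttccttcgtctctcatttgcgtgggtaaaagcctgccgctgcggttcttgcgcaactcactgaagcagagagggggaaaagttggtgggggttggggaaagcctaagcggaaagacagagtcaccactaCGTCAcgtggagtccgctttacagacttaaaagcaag

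Counting the start site as 1 and upstream bases as negative, the full CRE of Btg2 began at -166 and that of Plk2 at -62. Thus 2 of the 7 genes with a window, and 2 of the 14 windows, held one. Among all 32851 windows, 1.79% did. Homer1 held 3 CRE cores within 56 bases of its start, at -56, -40 and -14. CRE cores were present at one start or more in 6 of the 7 genes and in 6 of the 14 windows, where 20.8% of all windows held one. An AP-1 match lay at -152 of Bdnf start 2 (7.81% of all windows held one) and a TATA box at -46 of Gadd45b (13.6%). The CArG box and the EGR site were in none of the 14 windows, and in 1.63% and 2.91% of all windows. The 2 genes with a full CRE did not share a pattern of expression: Plk2 was higher in both P301S groups than in WT, and Btg2 was lower.

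**Figure D2:**
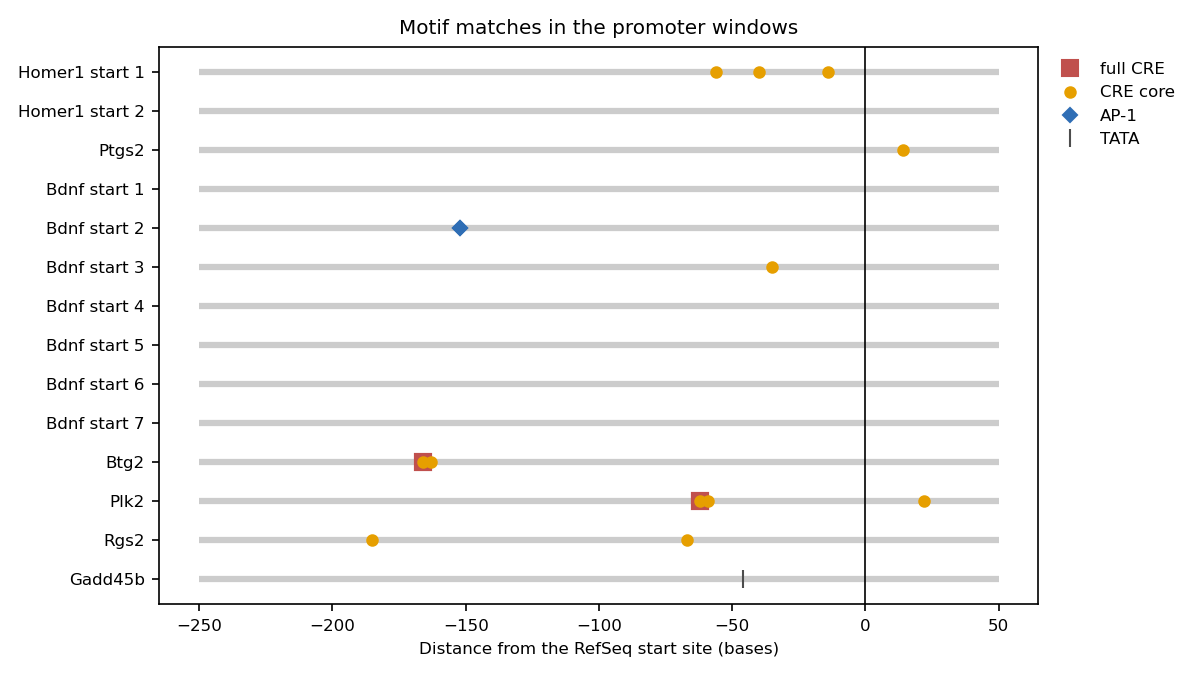
Positions of motif matches in the 14 RefSeq promoter windows of 7 genes, drawn as distance in bases from the start site, with 1 row per window. Full CREs appear in Btg2 at -166 and in Plk2 at -62, and Homer1 start 1 carries 3 CRE cores close to its start.

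Arc (chr15:74669083-74672570 in GRCm38) encodes a postsynaptic protein that promotes removal of AMPA receptors from the synapse and forms capsid-like particles. Arc was at 231 and 175 CPM in WT, 333 and 370 CPM in Tau, and 536 and 553 CPM in UNC0642-treated libraries. The 3 groups did not overlap, and each stood above the one before. Fitted log2 differences were 0.79 in Tau over WT (SE 0.12), 0.63 in UNC0642 over Tau (SE 0.12) and 1.43 in UNC0642 over WT (SE 0.12), the last a 2.69-fold difference. Because the library labelled WT replicate 1 was the higher of the WT pair, leaving it out gave larger values against WT, 1.00 for Tau and 1.64 for UNC0642-treated mice. With the sex-linked term the value between UNC0642 and Tau was 0.24, and Arc was then not called.

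Homer1 (chr13:93299635-93405129) encodes scaffolds that link metabotropic glutamate receptors to Shank proteins and to calcium stores, and its activity-induced short form competes with the long forms. Counts per gene cannot separate these forms. Homer1 was at 360 and 377 CPM in WT, 479 and 483 CPM in Tau, and 803 and 868 CPM in UNC0642-treated libraries. The WT and Tau pairs were each tight, and the gap between Tau and UNC0642-treated libraries was the wider one. The log2 fold change was 0.38 in Tau over WT (SE 0.074), 0.80 in UNC0642 over Tau (SE 0.074) and 1.18 in UNC0642 over WT (SE 0.075). Against WT these values changed little when the library labelled WT replicate 1 was left out (0.35 and 1.15). With the sex-linked term UNC0642 over Tau was 0.86. That term rests on the difference between the WT libraries, so it is not a separate check and cannot part sex-linked expression from treatment. Homer2, a constitutively expressed paralog, differed by 0.04 between Tau and WT and by -0.06 between UNC0642 and Tau (both SE 0.16).

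A pair of unconfirmed transcripts lies within introns of Homer1 on the same strand and shares no bases with its annotated exons; they are named here after their values were seen. Gm47075 (chr13:93312041-93314055) was at 8.16 and 5.74 CPM in WT, 2.36 and 3.95 CPM in Tau, and 7.46 and 6.66 CPM in UNC0642-treated libraries. Gm47088 (chr13:93317427-93319065) was at 3.23 and 3.28 CPM, 1.00 and 1.89 CPM, and 4.09 and 2.65 CPM in the same order. Both thus stood lowest in Tau, where Homer1 itself was above WT. Their log2 fold changes were -1.17 and -1.21 in Tau over WT and 1.19 and 1.25 in UNC0642 over Tau, with adjusted p-values of 0.198, 0.279, 0.327 and 0.421 in edgeR's quasi-likelihood test. Reads from unspliced Homer1 RNA and from these transcripts cannot be told apart.

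Plk2 (chr13:110395046-110400844) encodes a polo-like kinase that is induced by activity and weakens synapses by phosphorylating the Rap regulator SPAR, the product of Sipa1l1. Its levels were 254 and 265 CPM in WT, 328 and 299 CPM in Tau, and 306 and 341 CPM in UNC0642-treated libraries. Both P301S groups lay above WT, and the Tau and UNC0642 libraries overlapped. Fitted log2 differences were 0.27 in Tau over WT (SE 0.083) and 0.04 in UNC0642 over Tau, with a 95% interval of -0.14 to 0.23. Without the library labelled WT replicate 1 the Tau difference was 0.24, which is just under the 1.2-fold limit, and UNC0642 over WT was 0.29 against 0.32 with it. Among the other polo-like kinases, Plk3 was 0.46 higher in Tau than in WT (SE 0.14, edgeR adjusted p = 0.282). Sipa1l1 differed by -0.11 (SE 0.082).

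Bdnf (chr2:109674700-109727007) encodes brain-derived neurotrophic factor, the secreted ligand of the TrkB receptor, and is transcribed from several promoters that gene-level counts pool. Bdnf was at 28.6 and 44.9 CPM in WT, 51.9 and 53.8 CPM in Tau, and 70.0 and 68.1 CPM in UNC0642-treated libraries. The groups did not overlap, but the WT pair differed more than either other pair. The log2 fold change was 0.52 in Tau over WT (SE 0.17), 0.39 in UNC0642 over Tau (SE 0.16) and 0.91 in UNC0642 over WT (SE 0.17). Without the library labelled WT replicate 1, the lower of the pair, the values were 0.23 for Tau and 0.62 for UNC0642 over WT, and Tau was no longer called. Ntrk2, which encodes TrkB, differed by 0.06 in Tau over WT and by 0.08 in UNC0642 over Tau (both SE 0.086). Plat, whose product tissue plasminogen activator helps convert proBDNF, was 0.52 higher in UNC0642 than in Tau (SE 0.13, edgeR adjusted p = 0.348).

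Nptx2 (chr5:144545902-144557478) encodes a secreted pentraxin that clusters AMPA receptors at excitatory synapses on interneurons. It was at 50.3 and 46.3 CPM in WT, 57.3 and 55.7 CPM in Tau, and 74.7 and 63.0 CPM in UNC0642-treated libraries. The groups stood in ascending order without overlap, with the widest spread between the UNC0642-treated mice. On the log2 scale Nptx2 was at 0.22 in Tau over WT (95% interval 0 to 0.45), 0.28 in UNC0642 over Tau (0.06 to 0.51) and 0.51 in UNC0642 over WT (0.28 to 0.74). Against WT the values were 0.28 for Tau and 0.57 for UNC0642-treated mice without the library labelled WT replicate 1, and Tau was then called. The value for UNC0642 over Tau was 0.16 without UNC0642 replicate 1 and 0.40 without UNC0642 replicate 2. Nptx1, its constitutively expressed paralog, was at 0.21 in Tau over WT and -0.20 in UNC0642 over Tau (both SE 0.073), both under the 1.2-fold limit, and their receptor-like partner Nptxr was at -0.05 and -0.17 (both SE 0.20).

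Nrn1 (chr13:36725361-36735131) encodes neuritin, a small membrane-anchored protein that promotes neurite growth and spine stability. The levels were 94.4 and 112 CPM in WT, 116 and 116 CPM in Tau, and 132 and 121 CPM in UNC0642-treated libraries. The order was upward without overlap, but by small steps, 0.17 in Tau over WT (95% interval -0.04 to 0.38) and 0.12 in UNC0642 over Tau (-0.09 to 0.33). UNC0642 over WT was 0.29 (0.08 to 0.50). Without the library labelled WT replicate 1, Tau over WT was 0.05 and UNC0642 over WT was 0.17, neither called.

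Ptgs2 (chr1:150100031-150108227) encodes cyclooxygenase-2, which makes prostaglandins and in forebrain is found in excitatory neurons. Ptgs2 was at 19.9 and 21.8 CPM in WT, 32.2 and 36.2 CPM in Tau, and 43.6 and 44.0 CPM in UNC0642-treated libraries. Each pair was close together and the groups did not overlap. The log2 fold change was 0.71 in Tau over WT (SE 0.11), 0.36 in UNC0642 over Tau (SE 0.11) and 1.07 in UNC0642 over WT (SE 0.11), the last a 2.10-fold difference. Without the library labelled WT replicate 1 the values against WT were 0.65 and 1.01. Ptgs1, the constitutive cyclooxygenase, was at 0.15 and -0.19 in the first pair of comparisons (both SE 0.14).

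Rgs2 (chr1:143999338-144004161) encodes a protein that speeds the switching off of G alpha q signalling. It was at 49.2 and 55.2 CPM in WT, 68.0 and 71.2 CPM in Tau, and 67.3 and 66.3 CPM in UNC0642-treated libraries. Both P301S groups stood above WT, and here the Tau libraries were the highest. On the log2 scale Rgs2 was at 0.41 in Tau over WT (SE 0.090), 0.35 in UNC0642 over WT (SE 0.090) and -0.06 in UNC0642 over Tau (95% interval -0.26 to 0.14). Leaving out the library labelled WT replicate 1 gave 0.33 and 0.27 against WT. Rgs4, a paralog, was called higher only in UNC0642 over WT, by 0.31 (SE 0.10, edgeR adjusted p = 0.268).

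Btg2 (chr1:134075170-134079120) encodes an antiproliferative protein that joins the CCR4-NOT deadenylase and shortens mRNA tails. Btg2 was at 50.5 and 34.1 CPM in WT, 20.7 and 19.6 CPM in Tau, and 29.0 and 24.7 CPM in UNC0642-treated libraries. It was the one member that was lower in Tau than in WT, and the UNC0642-treated libraries lay between the other groups without overlap. The log2 fold change was -1.07 in Tau over WT (SE 0.17), 0.41 in UNC0642 over Tau (95% interval 0.02 to 0.80) and -0.66 in UNC0642 over WT (SE 0.17). Without the library labelled WT replicate 1, the highest of all for this gene, the values against WT were -0.76 and -0.35, and with the sex-linked term UNC0642 over Tau was -0.16. Tob1, of the same antiproliferative family, was lower by -0.44 in Tau than in WT (SE 0.11, edgeR adjusted p = 0.209).

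Gadd45b (chr10:80930073-80932204) encodes a stress-induced protein that binds the kinase MEKK4 and takes part in activity-induced DNA demethylation. The levels were 14.3 and 9.65 CPM in WT, 13.2 and 14.1 CPM in Tau, and 18.5 and 15.4 CPM in UNC0642-treated libraries. WT and Tau overlapped, because the library labelled WT replicate 1 was above both Tau libraries, and the UNC0642-treated libraries were highest. Fitted log2 differences were 0.18 in Tau over WT (95% interval -0.24 to 0.60), 0.31 in UNC0642 over Tau (-0.11 to 0.73) and 0.49 in UNC0642 over WT (0.08 to 0.91). Tau over WT was 0.49 without the library labelled WT replicate 1 and -0.07 without WT replicate 2, and UNC0642 over WT was 0.80 and 0.24. Of its paralogs, Gadd45a was 0.99 higher in Tau than in WT (SE 0.24, edgeR adjusted p = 0.207), and Gadd45g differed by -0.03 (SE 0.18).

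**Figure D3:**
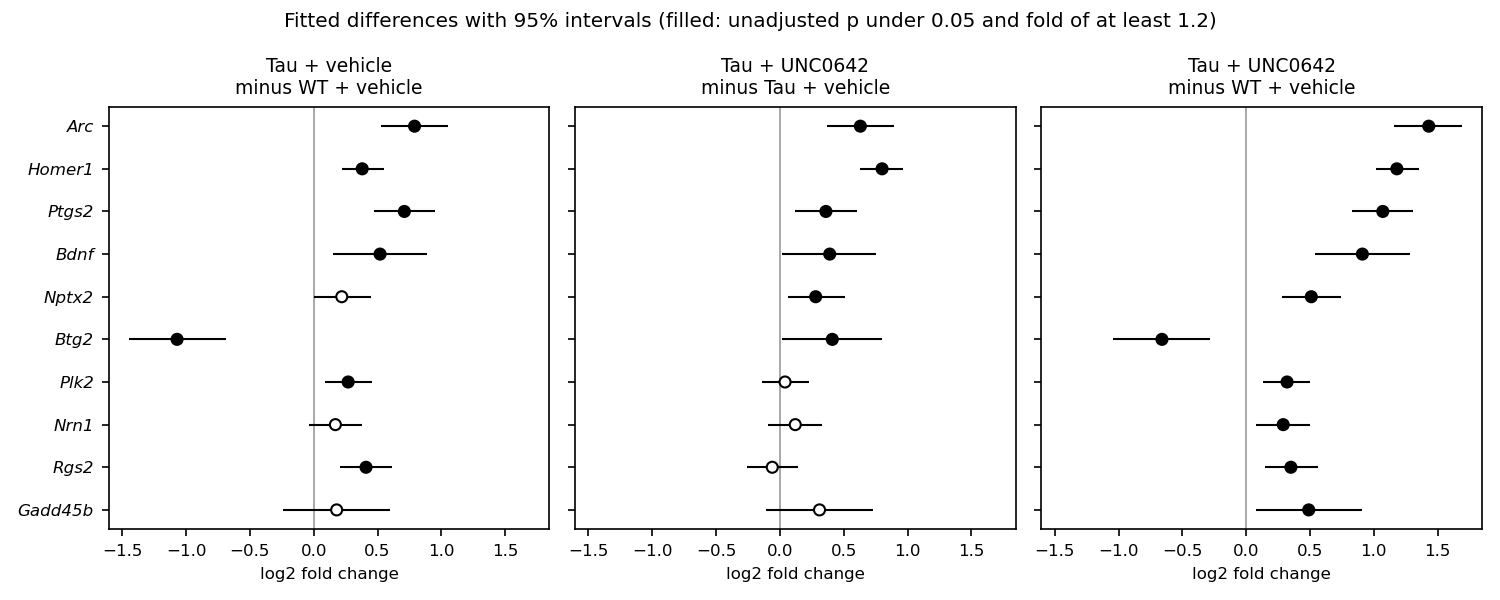
Fitted log2 fold change of each of the 10 genes with its 95% interval in the 3 comparisons, with filled points for genes called at an unadjusted p under 0.05 and a fold of at least 1.2. Homer1 has the largest value in UNC0642 over Tau, 0.80, and Btg2 is the one gene below 0 against WT, at -1.07 and -0.66.

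**Figure D4:**
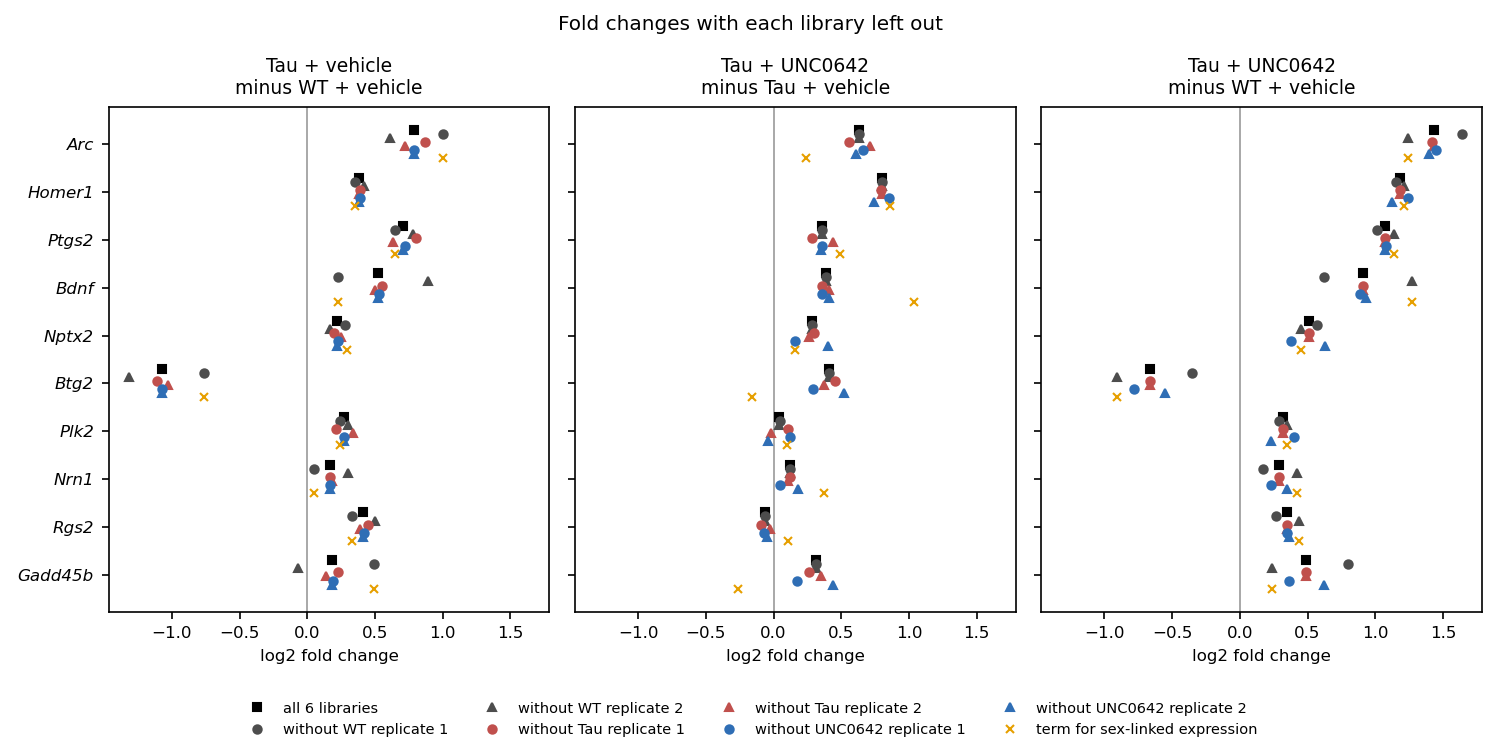
Log2 fold change of each gene with all 6 libraries and with each library left out in turn, in the 3 comparisons. Values for Homer1 in UNC0642 over Tau stay between 0.74 and 0.85, whereas Bdnf in Tau over WT runs from 0.23 to 0.89.

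Divided by annotated exon length, the 10 genes could be set roughly beside each other. That length joins the exons of all forms of a gene, 11976 bases for Homer1 and 6217 for Bdnf, and was the same in every group. Where a single form is shorter, the value is too low, and a change in the mix of forms is not seen. The places of Homer1 and Bdnf are therefore uncertain. In WT mice Arc was highest with a mean of 66.3 CPM per kilobase (SD 13, n = 2), followed by Plk2 at 57.8 (SD 1.7), whose range overlapped that of Arc. Nrn1 at 45.9 (SD 5.5) and Homer1 at 30.8 (SD 0.97) came next, and then Nptx2 at 19.1, Btg2 at 15.4 and Rgs2 at 14.4, of which neighbours overlapped. Gadd45b at 7.54, Bdnf at 5.91 and Ptgs2 at 4.54 CPM per kilobase were lowest, and again neighbours overlapped. The order was not the same in the other groups. In Tau mice Arc was at 115 CPM per kilobase (SD 8.5) and clear of Plk2 at 69.8 (SD 4.5), and Btg2 had moved to the last place at 7.35 (SD 0.26), overlapping Ptgs2. In UNC0642-treated mice Arc was at 178 CPM per kilobase (SD 4.0), and Homer1 at 69.8 (SD 3.8) had passed Nrn1 at 56.1 (SD 3.5) and overlapped Plk2 at 72.0 (SD 5.6).

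The members also differed in the shape of their profiles. Centred on each gene's mean over the 6 libraries, the mean profile of the members was at -0.27 and -0.31 in WT, -0.03 and 0 in the Tau libraries and 0.34 and 0.28 in the UNC0642 libraries on the log2 scale. Nptx2 lay nearest to it, with a root mean square difference of 0.0731, and Arc (0.365) and Btg2 (0.622) farthest. Arc had a steeper course, and Btg2 ran from high to low and partly back. Among 12630 non-members with a mean log2 CPM of at least 2, the 5 closest to the mean profile were Rnf19a (0.0358), Edrf1 (0.053), Actr6 (0.0588), Arl5b (0.061) and Pdia6 (0.0656), a likeness over 6 libraries only.

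Other genes of the activity response were read from lists that likewise had earlier results in view. Over all genes, 3.72% were called higher and 6.1% lower in Tau over WT. The shares were 3.73% and 3.95% in UNC0642 over Tau, and 3.77% and 5.69% in UNC0642 over WT. Of 19 activity-induced transcription factors, 8 were called higher and 1 lower in Tau over WT (10 and 0 without the library labelled WT replicate 1), 7 higher and 1 lower in UNC0642 over Tau, and 13 higher and 0 lower in UNC0642 over WT (13 and 0 without that library). The nuclear receptor Nr4a3 rose by 0.95 in Tau over WT (SE 0.11, adjusted p = 0.014, edgeR's quasi-likelihood test) and Egr1 by 0.76 (SE 0.12, adjusted p = 0.0468). In UNC0642 over WT the AP-1 subunit Fosl2 rose by 1.11 (SE 0.097, adjusted p = 0.0018), Nr4a3 by 1.09 (SE 0.11, adjusted p = 0.00385), Egr2 by 1.82 (SE 0.21, adjusted p = 0.00805) and Crem by 0.79 (SE 0.12, adjusted p = 0.0295), by edgeR's quasi-likelihood test. The medians over the 19 genes were 0.27, 0.40 and 0.71, and with the sex-linked term the median for UNC0642 over Tau was -0.01.

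Of 29 other activity-induced effectors, 17 were called higher and 0 lower in Tau over WT (18 and 0 without the library labelled WT replicate 1), and 20 and 0 in UNC0642 over WT (21 and 0). In UNC0642 over Tau 6 were called higher and 0 lower, a number that was 3 without Tau replicate 1 or UNC0642 replicate 1 and 2 without UNC0642 replicate 2. The medians were 0.35, 0.62 and 0.12 in that order of comparisons. The early response gene Ier5 rose by 0.52 in Tau over WT (SE 0.076, edgeR adjusted p = 0.0414). In UNC0642 over WT, the same test gave 0.64 for Ier5 (adjusted p = 0.00857), 0.72 for the ERK phosphatase Dusp6 (adjusted p = 0.0144), 0.66 for the prohormone convertase Pcsk1 (adjusted p = 0.0234) and 0.80 for Tiparp (adjusted p = 0.0481).

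Genes related to the members by sequence or by function were counted in the same way. The shares over all genes apply here too, 3.72% higher and 6.1% lower in Tau over WT, 3.73% and 3.95% in UNC0642 over Tau, and 3.77% and 5.69% in UNC0642 over WT. These lists are short, and nothing is read from their counts. Of 23 paralogs tested, 2 were called higher and 2 lower in Tau over WT, 0 and 1 in UNC0642 over Tau, and 3 and 1 in UNC0642 over WT, with medians of 0.04, -0.10 and -0.02. These counts were 2 and 2, 0 and 0, and 1 and 4 without the library labelled WT replicate 1, and 4 and 2, 0 and 1, and 4 and 3 without WT replicate 2. Of 32 receptors, partners and targets tested, 0 were called higher and 1 lower, 1 and 2, and 1 and 2, with medians of 0.01, -0.04 and -0.02, and 0 and 2, 1 and 3, and 1 and 4 without the library labelled WT replicate 1, and 1 and 1, 1 and 3, and 3 and 1 without WT replicate 2. The scaffold Shank1, a binding partner of Homer proteins, fell by 0.75 on the log2 scale in UNC0642 over WT (SE 0.12, adjusted p = 0.048, edgeR's quasi-likelihood test), with both WT libraries at 149 CPM, opposite in direction to Homer1. Of 22 genes that carry the calcium signal to the nucleus, 0 were called in either direction in Tau over WT, 0 higher and 1 lower in UNC0642 over Tau, and 0 higher and 4 lower in UNC0642 over WT. These counts moved when 1 library was left out: Tau over WT had 2 called higher without WT replicate 2, 1 lower without the library labelled WT replicate 1 and 3 lower without Tau replicate 1. UNC0642 over Tau had 5 lower without Tau replicate 2, and UNC0642 over WT had 6 lower without the library labelled WT replicate 1 and 2 lower without WT replicate 2 or UNC0642 replicate 2. The 4 lower in UNC0642 over WT in the full fit included the L-type calcium channel genes Cacna1c, at -0.44 (SE 0.11, adjusted p = 0.15), and Cacna1d, at -0.34 (SE 0.087, adjusted p = 0.184, edgeR's quasi-likelihood test).

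**Figure D5:**
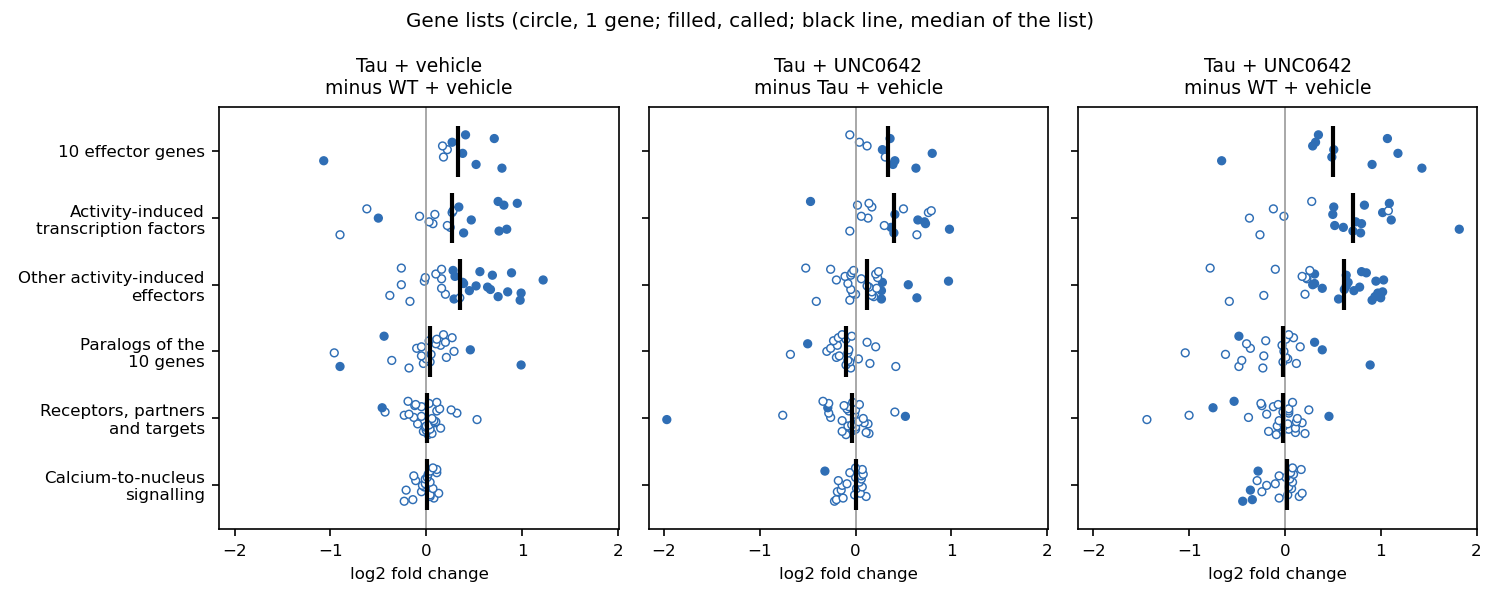
Log2 fold changes of single genes in the members and the other lists in the 3 comparisons, with filled circles for called genes and a black line at each list's median. The medians of the members, 0.33, 0.34 and 0.50, lie to the right of 0, and those of the paralogs, the partners and the calcium signalling genes lie near 0.

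Cell type markers were read beside the members. Of all genes, 3.72% were called higher and 6.1% lower in Tau over WT, 3.73% and 3.95% in UNC0642 over Tau, and 3.77% and 5.69% in UNC0642 over WT. The 7 striatal markers were all called higher in Tau over WT and 6 were called lower in UNC0642 over Tau, but 4 were called higher without the library labelled WT replicate 1, 2 without WT replicate 2 and 0 without Tau replicate 2. In Tau over WT without Tau replicate 2, Arc was at 0.72, Ptgs2 0.63, Bdnf 0.50, Rgs2 0.39 and Homer1 0.38. Plk2 was then at 0.34, Nptx2 at 0.25, Nrn1 at 0.18, Gadd45b at 0.14 and Btg2 at -1.03. In UNC0642 over Tau the same fit gave 0.80 for Homer1, 0.71 for Arc, 0.44 for Ptgs2, 0.41 for Bdnf and 0.37 for Btg2. Gadd45b was at 0.35, Nptx2 at 0.26, Nrn1 at 0.11, Plk2 at -0.02 and Rgs2 at -0.03. The part of tissue sampling in these values was not tested. The 7 oligodendrocyte markers had 3 called higher and then 2 called lower in the same comparisons. Leaving out 1 library gave 0 to 7 for each count, with 0 and 0 without Tau replicate 2, and in Tau over WT 7 without the library labelled WT replicate 1 or Tau replicate 1 and 0 without WT replicate 2. The other lists summed to 627 to 796 CPM for interneurons, 1600 to 1820 CPM for astrocytes, 281 to 352 CPM for microglia, 202 to 241 CPM for endothelial and mural cells and 287 to 518 CPM for meningeal fibroblasts, with 0 markers at 0 in every library. In Tau over WT, 1 of 7 interneuron, 1 of 6 astrocyte and 2 of 7 microglia markers were called higher, and 3 of 7 endothelial and mural and 2 of 7 tested meningeal markers were called lower. Over the fits that left out 1 library these counts ran from 1 to 3, 0 to 2, 1 to 4, 2 to 3 and 0 to 3 in that order. Excitatory neuron markers, 6 genes, had 0 called in Tau over WT, 1 called lower in UNC0642 over Tau, and 1 called higher and 1 lower in UNC0642 over WT. In Tau over WT 4 of the 6 were called higher without WT replicate 2 and 1 without Tau replicate 2, and in UNC0642 over WT 3 were called lower without the library labelled WT replicate 1. The drug targets Ehmt1 and Ehmt2 were at 43.6 to 49.0 CPM and 131 to 161 CPM over the 6 libraries.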

How the data were processed

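RNA was extracted from PFC and ribosomal RNA was removed before strand-specific library preparation. Per the study's methods, the authors trimmed reads with Cutadapt, aligned them to mouse RefSeq mRNAs with TopHat2 and counted them per gene with featureCounts, and the deposited files hold raw read counts (build mm10 per the submitters' processing notes). Versions and the strand setting of the counting are not given in the sources used here. Gene rows were joined by position because 26 gene names in 2 of the files had been turned into dates.

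Genes kept by filterByExpr (minimum count 10, minimum total 15; 20409 genes) were fitted with edgeR 4.0.16 (R 4.3.3) over all 6 libraries with a mean per group, TMM scaling and a quasi-likelihood test. All p-values for differences come from that fit. The common coefficient of variation was 12.3% on 3 residual degrees of freedom. On simulated counts for Tau over WT (19850 genes), 93.4% of 196 genes changed 3-fold were called, as were 5.03% of unchanged genes. The simulated counts took their spread from the fit and held no sex-linked difference or library that stands apart. The largest fold of a member was 2.69, so these rates check the code and do not cover the members' differences. Alternatives used DESeq2 1.42.0 and limma 3.58.1, other scalings, filters and thresholds, a replicate block, a sex-linked term and each library left out. The members and gene lists were chosen with earlier results of these data known. All 10 members are named. Of each other list at most the 4 called genes with the smallest p per comparison are named, plus paralogs, receptors and partners of a member beside it, and the 5 non-members with the most similar profile. Same-numbered libraries came from different mice, and the correlations of their deviations from the group means were -0.034, -0.021 and -0.0033, so the numbers do not pair them. A count of 3 corresponds to 0.107 to 0.178 CPM, and such limits cover counting error only.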

Additional observations from a re-analysis of the deposited data

How the results depend on the processing

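With 2 mice per group, p-values rest on the spread between single mice, pooled over the groups and drawn toward that of other genes at like levels. Dixon's test for a sample that stands apart needs more libraries than any group held. The number of members called in Tau over WT, UNC0642 over Tau and UNC0642 over WT was 3, 2 and 5 with a fold limit of 1.5, and 2, 1 and 3 with adjusted p-values, against 7, 6 and 10. The median log2 fold change over the members in Tau over WT was 0.259 with scaling by library size only. With the sex-linked term the medians were 0.199 in UNC0642 over Tau and 0.445 in UNC0642 over WT, and Btg2 in UNC0642 over Tau turned to -0.16. Leaving out 1 library at a time, with the lone library of a group assumed to vary like the others, gave 6 to 8, 3 to 6 and 8 to 10 members called, with medians of 0.307 to 0.361, 0.232 to 0.405 and 0.389 to 0.624. A fit without WT replicate 1 and Tau replicate 2, chosen after seeing the data, gave a median of 0.596 in UNC0642 over WT, with 1 WT and 1 Tau library left and the spread taken from the UNC0642 pair. The cause of these shifts was not tested. The number called among all genes also moved between these fits, so the counts of members are a description only. With the replicate number as a block, 7, 6 and 10 members were called, with medians of 0.329, 0.333 and 0.507, and this block changed no member's call. Among all 20409 genes, 692, 687 and 734 were then called higher and 1100, 717 and 1021 lower. Over the single members, 416 values under the other alternatives stayed on their side of the threshold, 27 fell short of it, 6 passed it anew and 1 reversed. The counts here and in the next sentence include fits without a library of the group outside the comparison. Those fits left the fold changes almost as they were, so the 416 does not measure stability. In UNC0642 over Tau the sign was kept in 13 of 16 fits for Plk2 and in 15 of 16 for Rgs2, Gadd45b and Btg2, and in Tau over WT in 15 of 16 for Gadd45b.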

Other observations

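Not every activity-induced gene stood in the upward order without overlap that 6 of the 10 effectors showed. Npas4, a neuron-specific transcription factor that is among the fastest to respond to calcium entry and that was chosen for mention after its values were seen, was at 39.2 and 17.7 CPM in WT, 17.0 and 20.2 CPM in Tau, and 27.1 and 25.4 CPM in UNC0642-treated libraries. The WT pair differed more than either other pair and overlapped both groups, with the library labelled WT replicate 1 the highest of all. The log2 fold change was -0.62 in Tau over WT (SE 0.28) and 0.50 in UNC0642 over Tau (SE 0.28), neither called. Fos, likewise chosen after its values were seen, was at 45.77 and 23.16 CPM in WT, 32.07 and 40.54 CPM in Tau, and 58.55 and 61.75 CPM in UNC0642-treated libraries. The library labelled WT replicate 1 lay above both Tau libraries and WT replicate 2 below both. Fos thus differed by 0.07 in Tau over WT (SE 0.25), a value that rests on both WT libraries. It differed by 0.73 in UNC0642 over Tau (SE 0.24, edgeR adjusted p = 0.461). Among effectors, Inhba, which encodes the activin A subunit, was at 0.55 in UNC0642 over Tau (SE 0.12, edgeR adjusted p = 0.279) and at -0.26 in Tau over WT (SE 0.12).

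Rnf19a, the non-member closest to the mean profile of the effectors, was at 46.6 and 48.2 CPM in WT, 57.5 and 58.5 CPM in Tau, and 72.7 and 67.5 CPM in UNC0642-treated libraries. The endoplasmic reticulum protein Pdia6 ran from 105 and 112 CPM to 135 and 134 CPM and then 155 and 163 CPM. In both genes the groups stood in ascending order without overlap, as in 2.97% of all genes. Both were chosen for likeness to a profile that itself ascends, so nothing is read from this order.

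An antisense transcript at Bdnf, Gm45346, had 3 to 8 counts per library, shares 896 bases with Bdnf exons and was too low to be tested. At Nrn1, the opposite-strand genes Fars2 (21.5 to 25.2 CPM) and Gm30177 (0.71 to 1.24 CPM) showed log2 fold changes of -0.04 and 0.04 in Tau over WT.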
